A study of Mus musculus with 32 samples.

Results

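Siglecs are receptors of the immunoglobulin superfamily that bind sialic acid, the sugar that caps many glycans on cell surfaces. Most of them signal through cytoplasmic tyrosine motifs that recruit the phosphatases SHP-1 and SHP-2 and damp activation of the cell, whereas Siglec-H lacks such a motif and pairs with the adaptor DAP12. In the central nervous system Siglec-H is best known as a receptor of microglia, while CD22 is the classical inhibitory receptor of B cells and Siglec-F that of mouse eosinophils.

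The mRNA of 7 mouse genes of this family (Siglech, Cd33, Siglece, Siglecf, Siglecg, Cd22 and Siglec1) was followed in lumbar spinal cord of the SOD1G93A model of amyotrophic lateral sclerosis, in which a human SOD1 transgene with that mutation is expressed. The genes were taken by symbol, and each matched 1 row among the 74021, 74016 and 74021 genes of 3 tables of estimated counts. In the first table, microglia (CD45int/CD11b+ cells) of SOD1G93A mice, taken at P140 (postnatal day 140), had been sorted into a LAG-3-low and a LAG-3-high population (n = 5 libraries each), and wild-type (WT) microglia (n = 4) served as controls, with no age given for them in the sources used here. LAG-3 is an inhibitory receptor first described on T cells. In the second table, unsplit microglia came from SOD1G93A mice with (LAG-3+/+) or without (LAG-3-/-) the Lag3 gene at P120 and at P140 (n = 3 libraries each). The third held total RNA of whole lumbar cord from P140 mice of those 2 genotypes (n = 3 libraries each). The LAG-3 deletion was a germline one, so cells other than microglia lacked the gene as well. Both genotypes carried the SOD1G93A transgene, so no LAG-3-/- group without it was compared.

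The 14 sorted libraries held 9403475 to 22850586 counts, the 12 stage libraries 23981406 to 49512632 and the 6 cord libraries 19430102 to 26994524. Lag3 mRNA ran from 23.6 to 63.6 CPM (counts scaled to a common library size) in the 6 LAG-3+/+ microglial libraries and from 0.0241 to 0.464 in the 6 LAG-3-/- ones, and from 43.5 to 76.2 against 5.45 to 5.67 in cord. Summed CPM of 7 microglial markers lay between 15910 and 42440 in the 26 microglial libraries and between 796 and 1415 in cord. Against the sex listed by the study, Xist mRNA (taken as present above 10 CPM) was discordant in 0 of 14 sorted, 9 of 12 stage and 2 of 6 cord libraries. The listed sex was therefore left out of the main tests and entered only as an alternative. P140_G93AKO replicate 3, listed as male and counted as discordant, held both Xist (23.45 CPM) and mRNA of Y-linked genes (181.2 CPM). All CPM values are scaled by TMM factors within their own table and are compared within a table.

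Of the 7 genes, 6 lie on chromosome 7 of GRCm39 and Siglec1 lies on chromosome 2. Siglecf (chr7:43000765-43008955, plus strand), Siglecg (chr7:43057628-43067782, plus), Cd33 (chr7:43173634-43193875, minus) and Siglece (chr7:43298405-43309607, minus) share a stretch of 308.8 kb that holds 19 protein-coding genes. Cd22 (chr7:30564827-30579767, minus), Siglech (chr7:55417926-55429195, plus) and Siglec1 (chr2:130911140-130928685, minus) lie outside it. No exact stretch of 31 or more bases of the Siglech, Siglecf, Siglecg or Siglec1 transcript occurred in another gene, and 1.53%, 2.19% and 4.92% of the bases of Cd33, Cd22 and Siglece did. By the span of the whole gene, Cd33, Cd22 and Siglece also overlap genes on the opposite strand (Gm72285 and Gm72294, Gm29439 and Gm72789, and Ceacam18). The libraries of sorted cells did not keep strand, so reads from any exon bases shared by such a pair could not be told apart there. Whether the exons overlap was not examined.

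The promoter windows run from 250 bases before to 50 after the start of the canonical transcript (GRCm39, 300 bases, on the gene strand). Those of Siglecf and Cd22 are shown because their mRNA moved the same way across the sorts. That of Cd33 is shown as a gene of the same chromosome 7 stretch as Siglecf. The Siglech window is shown because its mRNA was lower in both sorts than in WT. Capitals mark GAGGAA, the core letters bound by the myeloid factor PU.1, or CACGTG, an E-box, each searched on both strands with no overlap between them. The Siglecf window is chr7:43000572-43000871, the Cd22 window chr7:30579645-30579944, the Cd33 window chr7:43182546-43182845 and the Siglech window chr7:55417682-55417981.
Siglecf: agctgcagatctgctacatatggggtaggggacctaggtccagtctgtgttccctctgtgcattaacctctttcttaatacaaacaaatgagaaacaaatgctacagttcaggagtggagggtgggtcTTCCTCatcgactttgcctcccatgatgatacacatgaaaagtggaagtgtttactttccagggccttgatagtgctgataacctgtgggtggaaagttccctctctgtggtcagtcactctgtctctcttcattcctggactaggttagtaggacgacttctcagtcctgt
Cd22: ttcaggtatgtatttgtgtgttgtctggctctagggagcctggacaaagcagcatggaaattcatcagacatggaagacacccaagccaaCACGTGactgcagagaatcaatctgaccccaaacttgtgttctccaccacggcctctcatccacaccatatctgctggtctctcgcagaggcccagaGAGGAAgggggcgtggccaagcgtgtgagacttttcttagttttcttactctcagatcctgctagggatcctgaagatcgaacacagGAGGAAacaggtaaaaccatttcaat
Cd33: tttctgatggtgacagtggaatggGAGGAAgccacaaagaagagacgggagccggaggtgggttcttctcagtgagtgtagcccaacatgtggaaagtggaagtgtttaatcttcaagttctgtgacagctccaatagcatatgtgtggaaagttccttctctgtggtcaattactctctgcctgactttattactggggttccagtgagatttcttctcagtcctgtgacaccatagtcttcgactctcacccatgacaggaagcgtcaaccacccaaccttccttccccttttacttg
Siglech: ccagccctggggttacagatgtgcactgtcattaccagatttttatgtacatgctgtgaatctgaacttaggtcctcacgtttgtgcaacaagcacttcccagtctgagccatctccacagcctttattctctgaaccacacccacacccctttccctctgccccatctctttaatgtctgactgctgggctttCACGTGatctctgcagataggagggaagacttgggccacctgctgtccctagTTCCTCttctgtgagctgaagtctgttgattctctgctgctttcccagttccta
GAGGAA occurred in 6 of the 7 windows, Siglec1 being without it, and in 27.5% of 21757 windows of protein-coding genes. CACGTG occurred in the Cd22 and Siglech windows and in 7.82% of all windows, and an interferon response element, taken as GAAA repeated after any 2 bases, occurred in none of the 7 and in 3.84% of all windows. The Cd33 and Siglecf windows aligned to each other over 142 columns with 73.2% identical bases and a longest exact run of 16 bases. Among the other 20 pairs the best alignment spanned no more than 22 columns.

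Levels between genes were compared per kilobase of transcript (CPM per kb). In WT microglia Siglech stood first at 459 ± 163 CPM per kb (SD, n = 4), followed by Cd33 at 67.0 ± 21.5. Siglece (7.21 ± 6.63), Siglecf (7.01 ± 7.10) and Cd22 (3.12 ± 1.36) came next with ranges that overlapped, and Siglecg (0.538 ± 0.838) and Siglec1 (0.269 ± 0.113) were lowest. In LAG-3-high microglia the order was different, with Siglech at 96.1 ± 14.2 and Siglecf at 91.1 ± 13.8 CPM per kb (SD, n = 5), whose ranges overlapped, then Cd22 at 51.0 ± 6.28 and Cd33 at 48.6 ± 3.52, which overlapped as well. In LAG-3-high cells Siglecg was at 0.0211 ± 0.0339 CPM per kb.

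LAG-3-high microglia carried more Siglecf and Cd22 mRNA than LAG-3-low microglia, and less Siglece and Siglecg mRNA. With a gene called at an adjusted p under 0.1 and a fold change above 1 on the log2 scale (edgeR's quasi-likelihood test, Benjamini-Hochberg adjustment over all genes), 4 of the 7 genes were called, 2 higher and 2 lower, against 3.49% of 16508 genes. The median log2 fold change was -0.50 over the 7 genes and -0.02 over all genes. The same 4 genes did not overlap between the 2 sorts, which held for 15.5% of all genes.

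Cd22 was at 57.2, 45.0, 80.5, 50.8 and 57.1 CPM in the 5 LAG-3-low libraries and at 252, 224, 223, 181 and 202 CPM in the 5 LAG-3-high libraries. Each LAG-3-high library was above each LAG-3-low one, and the 4 WT libraries (14.6, 5.04, 14.6 and 18.7 CPM) were below both sorts. Cd22 was 3.73-fold higher in LAG-3-high cells than in LAG-3-low cells (log2 1.9 ± 0.29 SE, edgeR adjusted p = 0.00281).

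Siglecf, a receptor that restrains eosinophils in mice, was at 7.73, 14.8, 45.6 and 5.32 CPM in WT, at 51.7, 58.2, 84.1, 71.1 and 82.4 in LAG-3-low and at 211, 242, 298, 230 and 211 in LAG-3-high libraries. The 3 groups did not overlap. It was 3.43-fold higher in LAG-3-high cells than in LAG-3-low cells (log2 1.78 ± 0.45, edgeR adjusted p = 0.0478). This call was lost without TMM factors (log2 1.41, adjusted p = 0.156) and without LAG3_low replicate 1, 2 or 4 or LAG3_high replicate 3, where the log2 fold change stayed between 1.69 and 1.78.

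Siglece, an inhibitory receptor of neutrophils and of other myeloid cells, was at 47.2, 65.1, 89.0, 80.0 and 61.9 CPM in LAG-3-low and at 13.3, 19.0, 20.0, 11.2 and 17.2 CPM in LAG-3-high libraries. All LAG-3-high libraries were below all LAG-3-low libraries, whereas the WT values (3.31, 61.7, 36.7 and 12.4 CPM) spread across both sorts. The fall was 4.25-fold (log2 -2.09 ± 0.56, edgeR adjusted p = 0.0627). The call was lost on leaving out 1 library in 8 of 10 cases within the 2 sorts, with adjusted p up to 0.162 and log2 values between -2.18 and -1.98.

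Siglecg, which restrains B-1 cells, held 222, 64, 227, 189 and 356 counts in the LAG-3-low libraries (4.40 to 15.5 CPM) and 0, 3, 0, 1 and 0 counts in the LAG-3-high libraries. From 1058 against 4 counts in all, it was 196-fold higher in LAG-3-low cells, with a 95% interval of 76.3 to 721 for counting error (edgeR adjusted p = 0.00685). In WT the counts were 5, 53, 5 and 6, so 1 library held most of the Siglecg reads of that group.

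Siglech, Cd33 and Siglec1 did not pass the test between the sorts. Siglech was at 225, 179, 311, 388 and 388 CPM in LAG-3-low and at 192, 232, 246, 168 and 210 CPM in LAG-3-high libraries (log2 -0.51 ± 0.25, edgeR adjusted p = 0.469). Cd33 ran from 297 to 507 and from 252 to 305 CPM (log2 -0.50 ± 0.21, adjusted p = 0.315). Siglec1, the sialoadhesin of macrophages, was at 8.17, 14.2, 9.24, 11.1 and 4.001 CPM in LAG-3-low and at 29.3, 19.7, 11.7, 25.0 and 13.2 CPM in LAG-3-high libraries (log2 1.08 ± 0.49, adjusted p = 0.382). With these 2 groups fitted alone Siglec1 was called (log2 1.01, adjusted p = 0.0809). The ranges overlapped for all 3 genes.

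**Figure D1:**
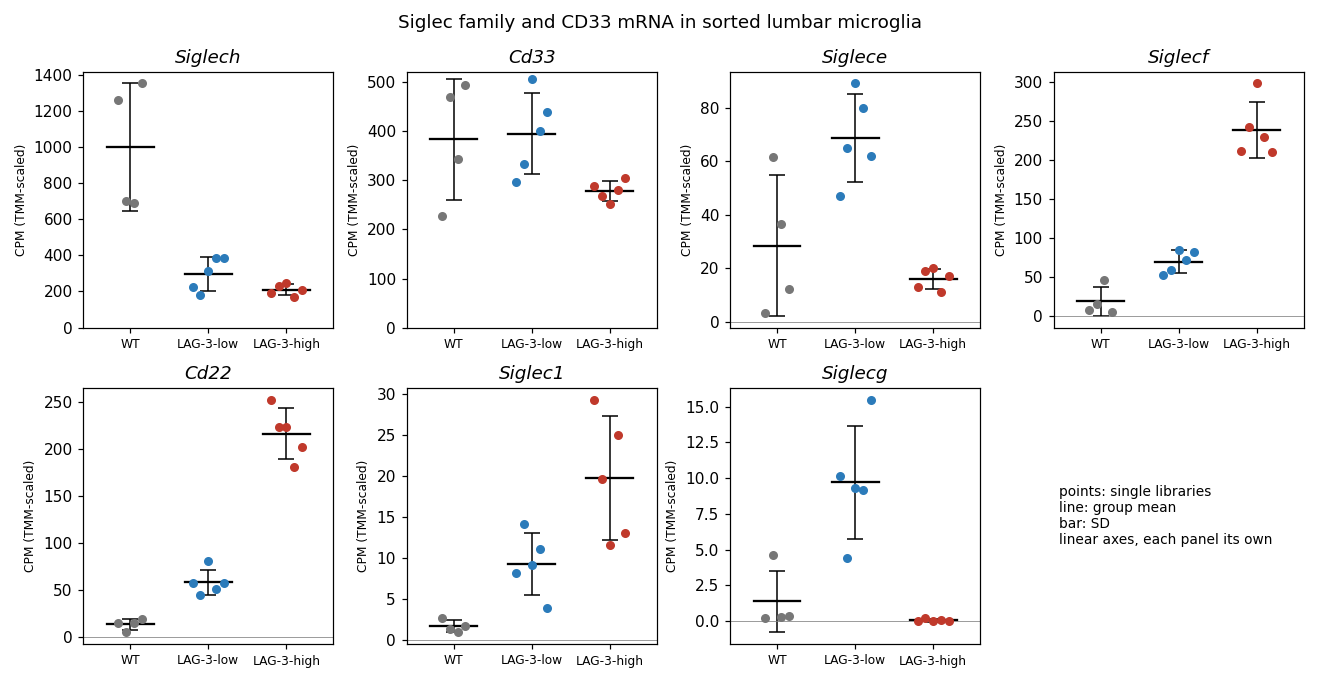
CPM of each gene in the 14 sorted libraries, on linear axes that differ between panels. Points are libraries, lines group means and bars SD (n = 5 for each LAG-3 sort and 4 for WT); Cd22 and Siglecf are lowest in WT and highest in LAG-3-high libraries without overlap, Siglech stands highest in WT, and Siglecg is near 0 in LAG-3-high libraries.

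Markers of other blood cells moved with the sorts. Of 10 neutrophil markers all 10 were called lower in LAG-3-high cells than in LAG-3-low libraries, where 3.49% of all genes were called in either direction, with summed CPM of 22770 to 66150 in LAG-3-low, 5943 to 70330 in WT and 1.20 to 7.31 in LAG-3-high libraries. Their part in the Siglece and Siglecg differences between the sorts was not tested, and fewer cells of a type and less RNA per cell cannot be told apart in such libraries. In the stage table, Siglece was at 42.1, 23.4 and 47.7 CPM in the P120 LAG-3-/- libraries, where the neutrophil sum was 3.16, 0.988 and 0.1002 CPM. Siglecg was at 9.62, 1.09 and 5.76 CPM in the same libraries. In the P140 LAG-3-/- libraries the neutrophil sums were 1.025, 841 and 4605 CPM. Siglece was at 22.55, 29.4 and 29.8 CPM there, and Siglecg at 0, 0.357 and 5.70 CPM. In LAG-3+/+ libraries the sums were 2102, 2568 and 1736 CPM at P120 and 3466, 655 and 0.192 CPM at P140. Beside them Siglecg was at 0.0205, 5.99 and 2.685 CPM and at 4.98, 4.03 and 2.46 CPM. Siglece ran from 33.55 to 44.78 and from 26.51 to 29.95 CPM. In the 4 WT libraries, neutrophil sums of 5943, 36390, 9213 and 70330 CPM stood beside Siglece at 3.31, 61.7, 36.7 and 12.4 CPM. Monocyte markers were also lower in LAG-3-high libraries, 4 of 5 being called, with sums of 0.0666 to 6.51 CPM there and of 1554 to 4436 CPM in the LAG-3-low sort.

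**Figure D2:**
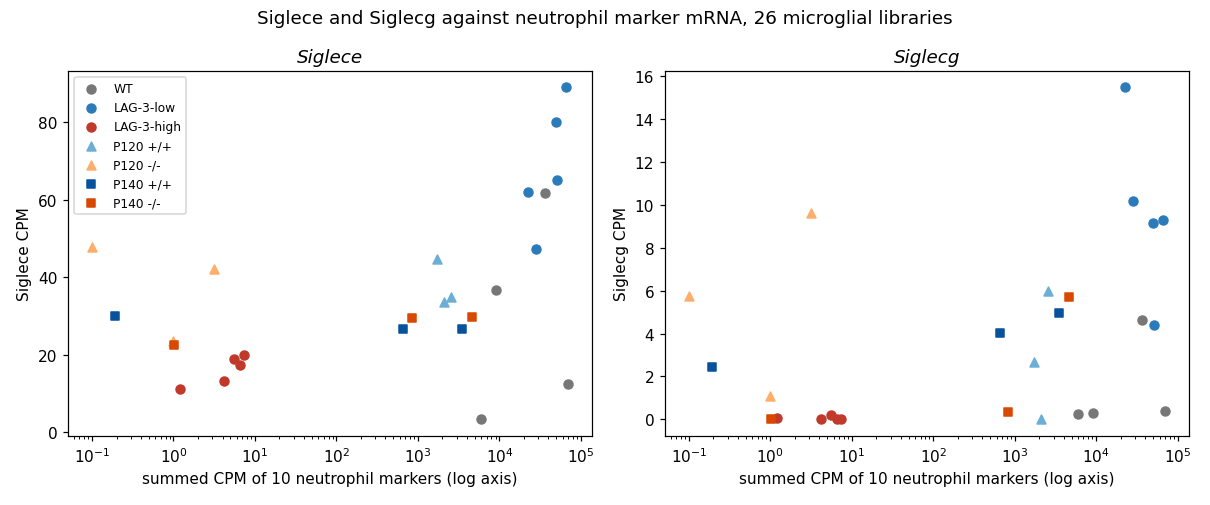
CPM of Siglece (left) and Siglecg (right) against the summed CPM of 10 neutrophil markers (log axis) in 26 microglial libraries, coloured by group. The LAG-3-low libraries hold both at neutrophil sums of 22770 or more, and the P120 LAG-3-/- libraries hold both at sums below 3.2. The P140 LAG-3-/- libraries, at sums of 1.025, 841 and 4605, hold Siglecg at 0, 0.357 and 5.70 CPM. The sorted and stage libraries were scaled apart, so levels are not compared between them.

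For Cd22 and Siglecf, markers of B cells and of eosinophils were examined beside them. Iglc2 had 0 counts in all 26 microglial libraries, and the summed CPM of 8 B cell markers was 257 to 617 for WT. It was 213 to 295 for the LAG-3-low sort against 113 to 214 for the LAG-3-high sort, ranges that overlapped. Of the 4 B cell markers tested, 0 were called between the sorts, where 3.49% of all genes were called. Against WT, 2 (Ighm and Ighd) were called lower in LAG-3-high libraries, where 27.0% of all genes were called. The part of B cells in the Cd22 values was not tested. Prg2 and Prg3 had 0 counts in all 26 microglial libraries, and 7 eosinophil markers together gave 0 to 25.6 CPM in WT, 0.305 to 8.26 CPM in LAG-3-low and 0.133 to 5.81 CPM in LAG-3-high libraries. Of the 2 eosinophil markers tested, Alox15 was called higher than WT in both sorts (2.3 ± 2.2 and 2.3 ± 3.13 CPM, SD, from 0), and Ccr3 was called lower in the LAG-3-high sort. Of all genes, 27.0% were called against WT in the LAG-3-high and 21.9% in the LAG-3-low sort. The part of eosinophils in the Siglecf values was not tested.

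For Siglech, which plasmacytoid dendritic cells also express, 6 markers of those cells summed to 0.0563 to 56.4 CPM in WT, 9.81 to 33.2 CPM in LAG-3-low and 77.5 to 88.8 CPM in LAG-3-high libraries. Klk1 and Ly6d had 0 counts in all 14 sorted libraries. Of the 2 markers tested, Pacsin1 was called higher than WT in both sorts and neither was called between them. Markers of border macrophages, cells that can express Siglec1, summed to 0 to 671 CPM in WT, 68.7 to 280 CPM in LAG-3-low and 78.3 to 154 CPM in LAG-3-high libraries. Of 6 tested, F13a1 was called lower between the sorts, and F13a1, Lyve1 and Cd163 were lower in the LAG-3-high sort against WT. For both lists, the shares of all genes called were 3.49% between the sorts, and 27.0% (LAG-3-high) and 21.9% (LAG-3-low) against WT. The part of either cell type in these values was not tested.

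Against WT, 5 of 7 genes were called in LAG-3-high and 4 of 7 in LAG-3-low cells, where 27.0% and 21.9% of all genes were. These comparisons share the WT libraries. The called genes did not overlap with WT in either case, which held for 20.9% and 15.7% of all genes. Siglech, the receptor that was highest in WT (1260, 703, 688 and 1355 CPM), was 4.78-fold lower in LAG-3-high (log2 -2.26 ± 0.27, edgeR adjusted p = 8.66e-05) and 3.36-fold lower in LAG-3-low cells (log2 -1.75 ± 0.27, adjusted p = 0.00105). Of 7 microglial markers tested, 5 (P2ry12, Sall1, Tmem119, Gpr34 and Cx3cr1) were also called lower than WT in both sorts. Their list summed to 29360 to 36750 CPM in WT, 15910 to 23900 CPM in LAG-3-low and 23300 to 25330 CPM in LAG-3-high libraries, and its part in the Siglech fall was not tested. Cd22 was 16.3-fold higher in LAG-3-high (adjusted p = 4.4e-06) and 4.38-fold higher in LAG-3-low cells (adjusted p = 0.00086). Siglecf was 13-fold (adjusted p = 0.00036) and 3.78-fold higher (adjusted p = 0.0179). Without WT replicate 3, which had the highest Siglecf of its group, the log2 fold changes of Siglecf rose from 3.70 to 4.70 and from 1.92 to 2.92.

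Siglec1 was at 2.70, 1.39, 1.01 and 1.77 CPM in WT, below every library of the SOD1G93A sorts. It was 11.4-fold higher in LAG-3-high (edgeR adjusted p = 0.000976) and 5.41-fold higher in LAG-3-low cells (adjusted p = 0.00988). Once transcript length and GC content were corrected for, the Cd22 and Siglec1 calls in LAG-3-low against WT were lost (log2 0.86, adjusted p = 0.227, and log2 1.06, adjusted p = 0.252), and those in LAG-3-high remained at log2 2.63 and 2.07. Siglecg was called lower in LAG-3-high cells than in WT (69 against 4 counts in all, 20.6-fold, 95% interval 7.71 to 77.9 for counting error, edgeR adjusted p = 0.0185). Without WT replicate 2 its log2 fold change moved from -4.51 to -2.36 (adjusted p = 0.0831). Siglecg in LAG-3-low against WT missed the threshold (log2 2.82 ± 1.13, adjusted p = 0.102) and passed it without that library (log2 4.97, adjusted p = 0.00555), with DESeq2 (log2 2.87, adjusted p = 0.0165), with RLE size factors (2.86, adjusted p = 0.0978), with the Xist level as a covariate (3.19, adjusted p = 0.0934) and with a replicate block (4.29, adjusted p = 0.0621). Siglece and Cd33 were not called in either comparison, with log2 values of -0.82 and -0.46 in LAG-3-high and of 1.27 and 0.04 in LAG-3-low cells. With the length and GC correction both were called lower in LAG-3-high cells (Siglece log2 -1.18, adjusted p = 0.0793, and Cd33 log2 -1.08, adjusted p = 0.0299), so that 7 of 7 genes were called there. Without WT replicate 1 Siglece was called lower in LAG-3-high cells (log2 -1.17), and without WT replicate 2 higher in LAG-3-low cells (log2 1.98).

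Of the genes that attach sialic acid, 2 of 12 sialyltransferases tested were called between the sorts, against 3.49% of all genes. St8sia6, which adds sialic acid in an alpha-2,8 linkage, was higher in LAG-3-high cells (298 ± 8.13 against 117 ± 33.96 CPM, SD, edgeR adjusted p = 0.0937), and St3gal5, which makes the ganglioside GM3, was lower (71.3 ± 7.31 against 226 ± 79.9 CPM, adjusted p = 0.00507). Of 6 signalling partners (Ptpn6, Ptpn11, Inpp5d, Tyrobp, Hcst and Syk), none was called between the sorts. Tyrobp, which encodes DAP12, was at 3138 ± 379 CPM in LAG-3-high and at 1370 ± 179 CPM in LAG-3-low libraries (log2 1.20 ± 0.37, adjusted p = 0.121). Syk, the kinase that DAP12 recruits, was at 66 ± 13 CPM in LAG-3-high and at 113.8 ± 14.5 CPM in LAG-3-low libraries (log2 -0.79 ± 0.20, adjusted p = 0.0491), a difference under the fold minimum. Of 6 genes of sialic acid synthesis and transport and 4 tested of sialidases and O-acetylation, none was called between the sorts.

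Against WT, LAG-3-high cells had 2 sialyltransferases higher (St8sia6 and St6gal1) and 2 lower (St3gal6 and St3gal5) of 12, where 27.0% of all genes were called. St8sia6 rose from 30.3 ± 18.7 to 298 ± 8.13 CPM (edgeR adjusted p = 0.000285) and St3gal6 fell from 335 ± 103 to 118 ± 5.39 CPM (adjusted p = 0.000451). Cmas, which activates sialic acid for transfer, was called higher (18.5 ± 19.3 to 85.1 ± 8.66 CPM, adjusted p = 0.0405), and Cmah, which hydroxylates it, was called lower (56.0 ± 20.2 to 16.6 ± 5.49 CPM, adjusted p = 0.00268). Siae, a sialic acid esterase, was also called higher in LAG-3-high cells than in WT. In LAG-3-low cells against WT, St8sia6 was higher, St3gal6 lower and the kinase gene Syk higher. Of 10 interferon-stimulated genes, 3 (Ifi44, Isg15 and Irf7) were called higher than WT in each SOD1G93A sort, against 27.0% and 21.9% of all genes called, none was lower, and none was called between the sorts.

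Across LAG-3 genotype and stage in unsplit microglia few of the 7 genes passed the test. Here the threshold was an adjusted p under 0.1 with no minimum fold change. At P120 none of the 7 genes was called between LAG-3-/- and LAG-3+/+ microglia, 0 passed an unadjusted p of 0.05 and DESeq2 called 0, while 0.0107% of 18669 genes were called by edgeR. At P140, 1 of 7 was called (Cd33), against 10.2% of all genes, and DESeq2 called 2 (Cd33 and Siglec1). From P120 to P140, 1 of 7 was called in LAG-3+/+ microglia (Cd33), against 27.4% of all genes, and DESeq2 called 3 (Cd33, Siglec1 and Siglecf). In LAG-3-/- microglia 0 of 7 were called by edgeR and by DESeq2, 1 gene (Siglecf) had an unadjusted p under 0.05, and 0% of all genes were called. The genotype-by-stage interaction gave 0 calls among the 7 by either tool, with 1 gene (Siglec1) under an unadjusted p of 0.05, against 0.171% of all genes called.

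Cd33 was at 358, 409 and 331 CPM in LAG-3+/+ and at 501, 355 and 485 CPM in LAG-3-/- microglia at P120. At P140 it was at 257, 205 and 214 CPM in LAG-3+/+ and at 340, 329 and 402 CPM in LAG-3-/- microglia. The 3 P140 LAG-3+/+ libraries were below the other 9. Cd33 fell from P120 to P140 in LAG-3+/+ microglia (log2 -0.70 ± 0.18, edgeR adjusted p = 0.0222), and at P140 it was 1.59-fold higher in LAG-3-/- than in LAG-3+/+ microglia (log2 0.67 ± 0.18, adjusted p = 0.064). The interaction was log2 0.38 ± 0.26 (adjusted p = 0.542), so the genotypes were not shown to differ in their change with stage. Once transcript length and GC content were corrected for, the stage value was 0.13 (adjusted p = 0.709) and the genotype value 0.09 (adjusted p = 0.84) on the log2 scale. The P140 genotype call was also lost when the 2 groups were fitted alone (adjusted p = 0.253), with no filter on low counts (adjusted p = 0.104), and without P140_G93A replicate 2 or 3 or P140_G93AKO replicate 2 or 3 (adjusted p up to 0.208). With the level of Xist as a covariate the stage value was -0.55 (adjusted p = 0.122), Xist being present in 1 of 3 P120 and 3 of 3 P140 LAG-3+/+ libraries.

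Siglec1 spread widely among libraries. It was at 6.10, 8.58 and 5.99 CPM in LAG-3+/+ and at 0.604, 5.27 and 5.61 CPM in LAG-3-/- microglia at P120, and at 2.49, 0.795 and 0.999 CPM against 0.749, 14.1 and 11.6 CPM at P140. One LAG-3-/- library at each stage was thus near the lowest LAG-3+/+ values of P140. The genotype difference at P140 was log2 2.62 ± 1.05 (edgeR adjusted p = 0.163), and without P140_G93AKO replicate 1 it was 3.16 and passed the threshold (adjusted p = 0.0392). The stage difference in LAG-3+/+ microglia was log2 -2.27 ± 1.04 (adjusted p = 0.151), the groups not overlapping. The interaction was log2 3.47 ± 1.44 (adjusted p = 0.327), and without P140_G93AKO replicate 1 it was 4.01 (adjusted p = 0.0858). Beside these values, the summed CPM of 10 interferon-stimulated genes was 266 to 498 at P120 and 385 to 3629 at P140 in LAG-3+/+ microglia, and 167 to 1221 and 607 to 1176 in LAG-3-/- microglia. Of these genes, 4 (Usp18, Ifit3, Isg15 and Irf7) were called higher with stage in LAG-3+/+ microglia, against 27.4% of all genes. Border macrophage markers summed to 2.53 to 18.5 CPM at P120 and 111 to 143 CPM at P140 in LAG-3+/+ microglia, and to 0.581 to 65.0 and 44.9 to 120 CPM in LAG-3-/- microglia. Of the 5 tested, Ms4a7 was called higher with stage in LAG-3+/+ microglia. Of 4 monocyte markers tested, Ccr2 was called higher in LAG-3-/- than in LAG-3+/+ microglia at P140, where 10.2% of all genes were called. Monocyte marker sums overlapped there, at 0.0384 to 213 CPM in LAG-3+/+ and 7.84 to 413 CPM in LAG-3-/- microglia. The part of interferon-stimulated genes, border macrophages and monocytes in the Siglec1 values was not tested.

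The other 5 genes were not called in any of the stage and genotype comparisons. Siglech ran from 397 to 502 CPM at P120 and from 561 to 874 CPM at P140 in LAG-3+/+ microglia, and from 345 to 624 and from 398 to 848 CPM in LAG-3-/- microglia. Siglecf ran from 96.9 to 161 and from 170 to 205 CPM in LAG-3+/+ and from 97.8 to 144 and from 128 to 214 CPM in LAG-3-/- microglia. In LAG-3+/+ microglia the stages did not overlap for 2 genes that were higher at P140 (Siglech and Siglecf) and 3 that were lower (Cd33, Siglece and Siglec1), which held for 42.2% of all genes. In LAG-3-/- microglia the stages overlapped for all 7 genes, while 14.8% of all genes did not overlap. Between genotypes the groups did not overlap for Siglec1 at P120 and for Cd33 at P140, which held for 11.5% and 21.1% of all genes. Cd22 was at 30.1, 98.9 and 8.67 CPM in P120 LAG-3-/- microglia, a spread wider than that of any other group of the table for this gene, and Siglecg ran from 0 to 170 counts among the 3 P140 LAG-3-/- libraries.

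**Figure D3:**
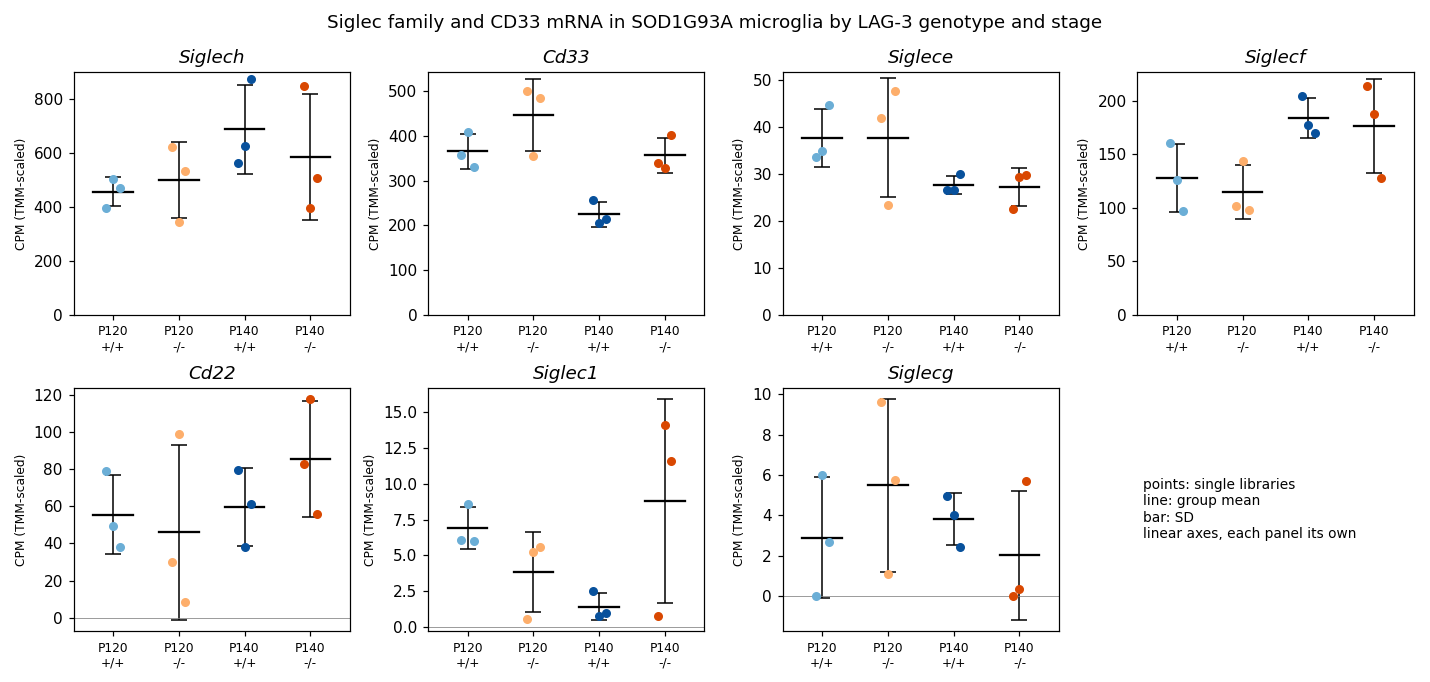
CPM of each gene in the 12 stage libraries, on linear axes that differ between panels, with points for libraries, lines for means and bars for SD (n = 3 per group). Cd33 is lowest in the 3 P140 LAG-3+/+ libraries, and Siglec1, Cd22 and Siglecg spread widely within the LAG-3-/- groups.

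The glycan genes gave no call between genotypes at P120. At P140, where 10.2% of all genes were called, LAG-3-/- microglia had St3gal2 (50.9 ± 12.9 against 10.8 ± 6.14 CPM, SD, n = 3, edgeR adjusted p = 0.0307) and St6gal1 higher among 12 sialyltransferases, and Nans, the sialic acid synthase, lower among 6 synthesis genes (36.4 ± 12.7 against 88.0 ± 37.1 CPM, adjusted p = 0.0593). Inpp5d, which encodes the lipid phosphatase SHIP-1, was higher (394 ± 200 against 139 ± 17.8 CPM, adjusted p = 0.044), and Casd1, which adds O-acetyl groups to sialic acid, was higher too. From P120 to P140 in LAG-3+/+ microglia, 3 signalling partners were called higher (Hcst, Tyrobp and Ptpn6) and 2 lower (Inpp5d and Syk) of 6, against 27.4% of all genes. Ptpn6, which encodes SHP-1, rose from 496 ± 22.6 to 818 ± 56.7 CPM (adjusted p = 0.0452), and Inpp5d fell from 583 ± 48.0 to 139 ± 17.8 CPM (adjusted p = 0.00636). In the same comparison, synthesis genes were called higher in 3 of 6 cases (Nans, Nanp and Slc35a1) and none lower, sialyltransferases higher in 1 (St3gal6) and lower in 2 of 12 (St3gal2 and St6gal1), and Casd1 and Siae lower of 4.

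In whole cord at P140, Siglec1 and Cd22 mRNA was lower in LAG-3-/- than in LAG-3+/+ mice. Of the 6 genes tested, 2 were called, both lower, against 7.52% of 17702 genes, at an adjusted p under 0.1 and a fold change above 1 on the log2 scale. Siglecg, with 0 to 3 counts a library, did not pass the filter on low counts. The median log2 fold change of the 6 genes was -0.68, and that of all genes was 0.00.

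Siglec1 was at 11.4, 6.35 and 7.83 CPM in LAG-3+/+ and at 1.71, 2.36 and 2.50 CPM in LAG-3-/- cord, a 3.87-fold fall (log2 -1.95 ± 0.25, edgeR adjusted p = 0.000381). Cd22 was at 16.0, 11.9 and 14.7 CPM against 8.96, 3.90 and 6.29 CPM, a 2.24-fold fall (log2 -1.17 ± 0.26, adjusted p = 0.00705). Cd33 was at 35.6, 22.9 and 33.1 CPM against 16.9, 14.5 and 18.1 CPM, with a log2 fold change of -0.89 ± 0.16 (adjusted p = 0.00205) that was under the fold minimum. These 3 genes did not overlap between the genotypes, as 51.6% of all genes did not.

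Siglech, Siglecf and Siglece overlapped between the genotypes in cord. Siglech was at 17.0, 16.1 and 18.7 CPM in LAG-3+/+ and at 19.0, 18.2 and 18.4 CPM in LAG-3-/- cord (log2 0.10 ± 0.11, edgeR adjusted p = 0.50). Siglecf was at 9.41, 6.31 and 10.4 against 8.91, 4.77 and 5.39 CPM (log2 -0.47 ± 0.26, adjusted p = 0.184), and Siglece was between 0.945 and 1.42 CPM in all 6 libraries. Per kilobase of transcript, Siglech (7.91 ± 0.624 CPM per kb, SD, n = 3), Cd33 (5.32 ± 1.17), Cd22 (3.35 ± 0.503) and Siglecf (3.33 ± 0.821) led in LAG-3+/+ cord.

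Other genes moved beside these, in a comparison where 7.52% of all genes were called and 51.6% did not overlap between the genotypes. Summed CPM of 7 microglial markers was 1123 to 1415 in LAG-3+/+ and 796 to 1087 in LAG-3-/- cord, without overlap. The median log2 fold change of these markers was -0.41, and none was called. Tmem119 went the other way, at 24.7 ± 2.07 against 32.6 ± 4.95 CPM (SD, n = 3). The part of the microglial markers in the falls was not tested. The summed CPM of 8 B cell markers was 24.6 to 27.6 in LAG-3+/+ and 36.4 to 42.4 in LAG-3-/- cord. Of the 3 B cell markers tested 0 were called higher, and Pax5 was called lower (0.922 ± 0.0801 to 0.346 ± 0.274 CPM, edgeR adjusted p = 0.0415). Of 3 oligodendrocyte markers, whose sum was 13620 to 14880 CPM in LAG-3+/+ and 19550 to 27390 CPM in LAG-3-/- cord without overlap, Mbp was called higher. Border macrophage markers summed to 9.49 to 13.2 CPM in LAG-3+/+ and 3.35 to 13.7 CPM in LAG-3-/- cord, ranges that overlapped. Of 5 tested, none was called, with a median log2 fold change of -0.56. The part of these cells in the Cd22 and Siglec1 falls was not tested. Rsad2 was called lower among 10 interferon-stimulated genes, whose sum was 104 to 181 against 90.7 to 116 CPM, where 7.52% of all genes were called. St8sia6 was called lower among 19 sialyltransferases (24.2 ± 1.02 to 9.24 ± 0.825 CPM, edgeR adjusted p = 0.000102). Xist was present in 3 of 3 LAG-3+/+ and 1 of 3 LAG-3-/- cord libraries. With the Xist level as a covariate, Cd22 was no longer called (log2 -0.58, adjusted p = 0.155), and Siglec1 remained called. Without cord_G93ALAG3KO replicate 2 the log2 fold change of Cd22 was -0.90, under the fold minimum.

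**Figure D4:**
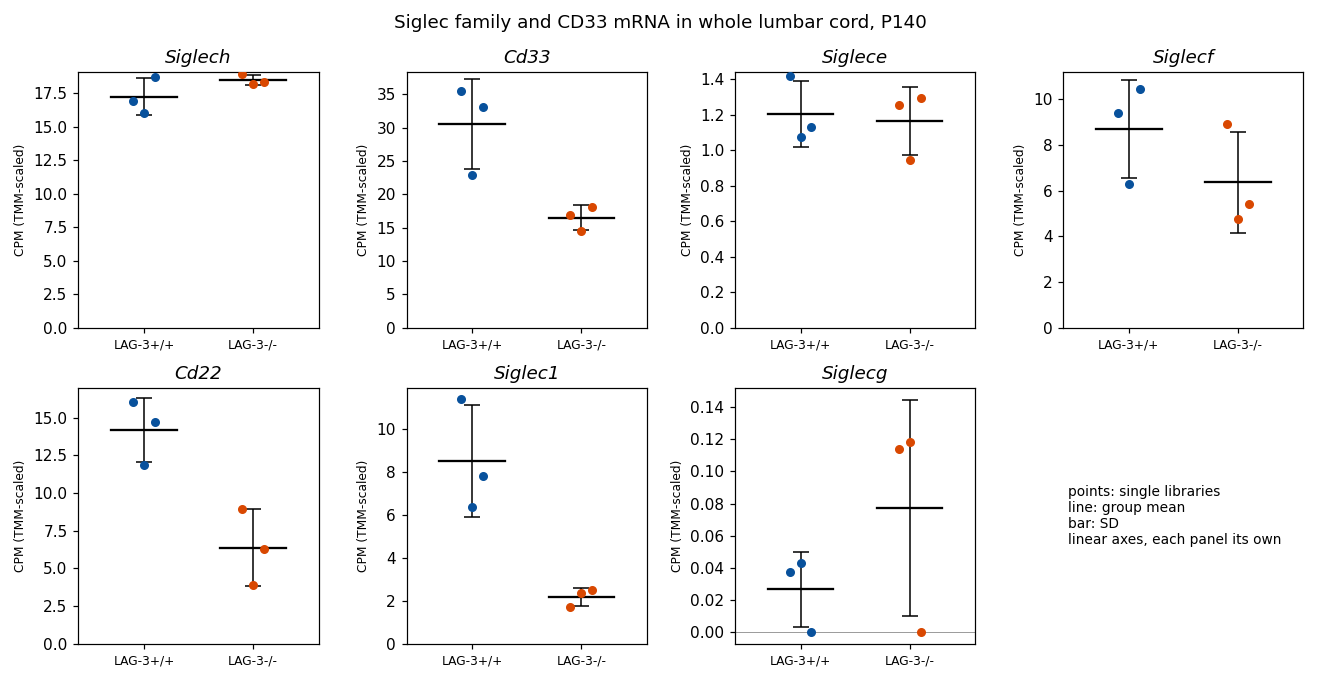
CPM of each gene in the 6 cord libraries at P140, on linear axes that differ between panels, with points for libraries, lines for means and bars for SD (n = 3 per genotype). Siglec1, Cd22 and Cd33 are lower in every LAG-3-/- than in every LAG-3+/+ library, and Siglech overlaps.

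**Figure D5:**
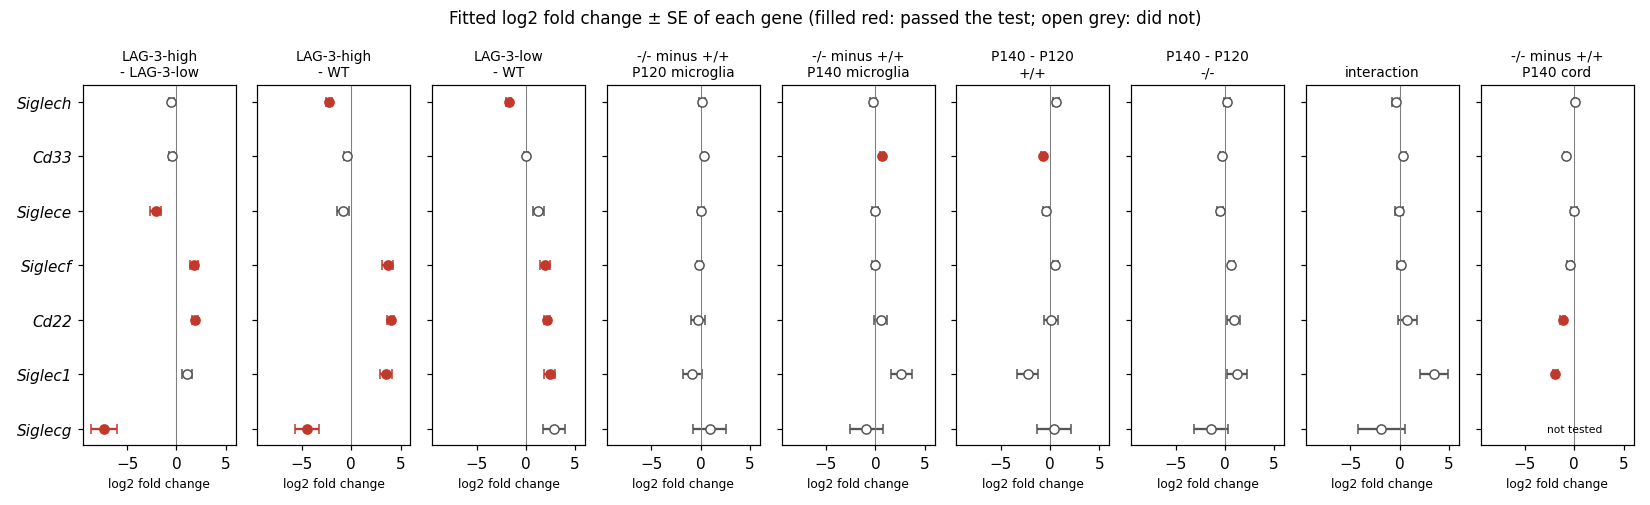
Fitted log2 fold change of each gene with its SE in the 9 comparisons, the direction being given above each panel. Filled red points passed the test and open grey points did not; the sort comparisons hold 13 of the 17 called values.

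The genes whose log2 CPM ran most like that of each member were found by the mean of Pearson r over the 14 sorted and the 12 stage libraries, among 8346 genes. The libraries share their groups and sequencing, so these are descriptions. Siglecf was closest to Atp6v1b2 (mean r 0.956), C1qa (0.937) and Grn (0.936), and Cd22 to Ctsb (0.92), Bcar3 (0.919) and Ctsd (0.913). Siglech was closest to Gm63262 (0.927), Ltc4s (0.923) and Susd3 (0.921), and Cd33 to Pnisr (0.917), Adgrg1 (0.89) and Dock4 (0.856). The values were lower for Siglec1, with Crlf2 and Csf1 (both 0.856) and Ass1 (0.852), and for Siglece, whose nearest genes included Cggbp1 (0.781) and Trim39 (0.775).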

How the data were processed

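RNA was sequenced from 26 libraries of sorted lumbar microglia (14 by LAG-3 level, 12 by genotype and stage, from full-length cDNA that does not keep strand) and 6 libraries of whole lumbar cord (a strand-keeping kit). The authors trimmed reads with Trim Galore 0.6.7 and made the deposited estimated counts per gene with Salmon 1.9.0 and tximport against GRCm39 (R 4.2.1), and the annotation release is not given in the sources used here. Values per gene need not be whole and were rounded here. Ensembl identifiers were named from GENCODE vM39, and all 7 symbols matched 1 row in each table. Rows that matched no named gene held at most 0.0514% of counts and were kept. Coordinates, transcript lengths and promoter windows are those of GENCODE vM39 on GRCm39.

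Each table was fitted on its own over all its groups with edgeR 4.0.16 (R 4.3.3), using filterByExpr with a minimum count of 10 and a minimum total of 15, TMM factors, robust quasi-likelihood F tests and Benjamini-Hochberg adjustment over all genes tested. The threshold on adjusted p was 0.1, and sorts and cord also needed a log2 fold change beyond 1 in size, while genotype and stage needed none. SE values are the log2 fold change divided by the root of F. Folds of Siglecg against LAG-3-high cells were taken from pooled counts with exact 95% intervals, which cover counting error only. Genes named from the lists of partners were those called with the smallest adjusted p, at most 3 a list and comparison, and Tyrobp, Syk between the sorts and Tmem119 were named after their values were seen. Tests were also run on simulated counts with large changes, which for the microglial tables had less spread than these data. That check does not show how often smaller changes would be found here.

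Alternatives were DESeq2 1.42.0, RLE size factors, no TMM factors, other filters and thresholds, the listed sex, the replicate number, offsets for transcript length and GC content, fits of 2 groups and leaving out each library. The Xist level as a covariate was added after the data were seen. The labels do not say whether same-numbered libraries of the 2 sorts came from the same mice, and the main tests left them unpaired. Same-numbered libraries of the sorts had the same listed sex. Over all genes tested, correlations of same-numbered libraries ran from -0.00134 to 0.0674 between the 2 sorts, which cannot exclude pairing. The labels do not say that libraries came from separate mice, so p-values measure the spread between these samples. The 7 genes and the lists of partners and markers were chosen with earlier results of these data known. Of 8 microglial markers, 7 matched a symbol. Values of a few marker and like-pattern genes are not reported here.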

Additional observations from a re-analysis of the deposited data

Results flagged for a closer look

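Siglecg in WT replicate 2 stood apart from the other 3 WT libraries at 4.61 CPM, against 0.254 to 0.380 CPM, with a gap of 0.971 of the range of the group. It was the single case among 21 sets of a gene and a sorted group that were examined in this way, and chance alone flags about 1 in 20. The same library had the highest Siglece of its group (61.7 CPM) and a summed neutrophil marker level of 36390 CPM, second in WT to the 70330 CPM of replicate 4, and their part in the Siglecg value was not tested.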

How the results depend on the processing

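In all, 1211 refitted log2 fold changes of the 7 genes were set against the reported ones. Of these, 1117 kept direction and call, 30 lost the call, 21 gained one and 43 changed sign, 1 of them from a called value. Counts are estimated, so any reads shared by overlapping genes would limit Cd33, Cd22 and Siglece, and counts of 0 to 3 limit Siglecg in cord and LAG-3-high cells. DESeq2 gave no adjusted p for Siglecf in the 3 sort comparisons.

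Number of genes called among the 7, against the reported number. LAG-3-low against WT gave 2 (from 4) with the length and GC correction. LAG-3-/- against LAG-3+/+ at P140 gave 0 (from 1) with an adjusted p under 0.05, with a fold minimum of 1 on the log2 scale, with no filter, with the length and GC correction and with the 2 groups alone, and 2 with DESeq2. P140 against P120 in LAG-3+/+ microglia gave 0 (from 1) with the fold minimum, with the Xist level and with the length and GC correction, 3 with DESeq2 and with the 2 groups alone, and 2 without TMM factors. The cord gave 1 (from 2) with the Xist level. The sorts gave 5 (from 4) with the 2 groups alone, and LAG-3-high against WT 7 (from 5) with the length and GC correction. Leaving out 1 library gave 2 to 4 between the sorts, 0 to 2 for genotype at P140, 0 to 1 for the interaction and 1 to 3 in cord. Without TMM factors the split between the sorts was 1 higher and 2 lower, from 2 and 2, while the median log2 fold change of all genes moved from -0.02 to -0.40, and in P140 against P120 LAG-3+/+ microglia from -0.22 to -0.70.

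As a replicate block, the shared numbers took genotype at P140 from 1 to 0 (Cd33, log2 0.67, adjusted p = 0.113) and brought the Siglecg call in LAG-3-low against WT (log2 4.29, adjusted p = 0.0621), with 60 of 62 fold changes unchanged in direction and call. Whether the numbers pair the samples is not stated in the labels. Genes called over the whole table went from 576 to 391 between the sorts and from 1908 to 814 for genotype at P140 under the block.

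Sign changes on the log2 scale. With the length and GC correction, Cd33 gave -0.59 in LAG-3-low against WT, 0.13 in P140 against P120 LAG-3+/+ microglia and -0.18 in the interaction, Cd22 -0.05 for genotype at P140, Siglece 0.21 for stage in LAG-3+/+ and 0.10 in cord, and Siglech -0.06 in cord. Without TMM factors, genotype at P140 gave 0.06 for Siglech, 0.32 for Siglece and 0.23 for Siglecf, stage gave -0.09 for Siglecg and -0.35 for Cd22 in LAG-3+/+ and -0.10 for Siglech in LAG-3-/-, the interaction 0.20 for Siglece and the cord -0.03 for Siglech. With no filter Siglece gave 0.01 for genotype at P140 and 0.01 in the interaction. With the Xist level, cord gave 0.08 for Siglece and 0.11 for Siglecf. Leaving out 1 library gave, for genotype at P120, -1.52 to 0.21 (Cd22), -0.36 to 0.03 (Siglecf) and -0.06 to 0.34 (Siglech). For genotype at P140 it gave -0.13 to 0.10 (Siglece) and -0.22 to 0.13 (Siglecf), and for stage in LAG-3+/+ -0.17 to 0.45 (Cd22) and -0.19 to 1.5 (Siglecg). It gave -0.14 to 0.45 for Siglech with stage in LAG-3-/-, -0.10 to 0.19 for Cd33 in LAG-3-low against WT, -0.17 to 0.08 for Siglece in cord, and -0.27 to 0.19 (Siglece) and -0.09 to 0.30 (Siglecf) in the interaction. The causes were not tested.

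Genes called over the whole table ranged, across the alternatives that keep all libraries, from 391 to 1450 between the sorts, 2663 to 6081 and 1721 to 5312 against WT (LAG-3-high and LAG-3-low), 1 to 162 and 0 to 4368 for genotype at P120 and P140, 2761 to 6989 and 0 to 464 for stage in LAG-3+/+ and LAG-3-/-, 0 to 1317 for the interaction and 840 to 8330 in cord.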
